A study of Mus musculus with 91 samples.

Results

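The genes described here are 34 genes of the lysosome: the hydrolases that break down sugars, sulfated glycans, lipids and proteins, their activator proteins, the sterol carriers, the membrane proteins and 5 proteins of the proton pump. They were chosen by symbol, and each was read on its brightest probe, out of 19057 gene symbols that the probe annotation names. The members have 77 probes in all, and the brightest probe of each was the same one in all 3 tissues. Lysosomes are acidic organelles in which macromolecules that arrive by endocytosis, phagocytosis or autophagy are taken apart. A V-type ATPase pumps protons into the lumen, hydrolases work at that low pH, and membrane glycoproteins and carriers protect the boundary and return the products to the cytosol. In fat, lysosomes are abundant in macrophages, which take up lipid from dying adipocytes, and transcription factors of the TFEB family switch on many lysosomal genes through a short promoter element that contains an E-box.

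Male C57BL/6J mice were fed a normal diet (ND, the AIN-76 semi-purified diet) or a high-fat diet (HFD, the same base with 20% fat and 1% cholesterol) from 5 weeks of age, and RNA was measured on Illumina MouseWG-6 v2 bead arrays with 45281 probes. Epididymal white adipose tissue (EAT) was sampled after 2, 4, 8, 20 and 24 weeks, at 7, 9, 13, 25 and 29 weeks of age, with 3 arrays per diet and week, each of a pool of RNA from several mice. Mesenteric white adipose tissue (MAT) was sampled at the same weeks with 1 pool per diet and week. Liver was sampled at 0 weeks (baseline, 5 weeks of age) and then after 2, 4, 6 and 8 weeks and every 4 weeks up to week 24 (7 to 29 weeks of age), with 3 arrays per group. A pool averages the mice it holds, so the spread between pools is smaller than that between mice, and p-values measure only the spread between these arrays.

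The array background, taken as the 5th percentile of the intensities of an array, split the EAT arrays into 9 with 109.9 to 120.7 and 21 with 75.7 to 92.1. The 9 arrays were the 3 ND arrays of 2 weeks and all 6 arrays of 24 weeks, so at 2 weeks diet and background cannot be told apart, whereas at 24 weeks both diets lay in the high group, with HFD (109.9 to 114.9) below ND (116 to 120.7). MAT showed the same split, with 3 arrays (ND at 2 weeks and both diets at 24 weeks) at 108.1 to 122.3 and 7 at 81.3 to 84.8. Adipocyte markers were bright on every EAT array (summed intensity of 9 genes 149753 to 206633) and hepatocyte markers on every liver array (7 genes, 218402 to 263672). Transcripts of other tissues were high on some EAT arrays of 2, 4 and 8 weeks: epididymis markers summed to 140158 and 177328 on HFD pools 2 and 3 of 4 weeks, testis markers to 63757 on HFD pool 1 of 2 weeks, and hepatocyte markers to between 29362 and 79969 on all 6 arrays of 8 weeks. At 20 and 24 weeks the epididymis sum stayed at or below 3357.

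The mouse promoters of the members are shown first, because TFEB and its relatives bind the element TCACGTGA, whose core CACGTG is an E-box that reads the same on both strands. Each stretch runs 5′ to 3′ on the gene's own strand, from 250 bases before the transcription start to 50 after it, as RefSeq gives it on GRCm38.p6, with CACGTG or the whole TCACGTGA in capitals. The first 5 are the members whose promoter holds the whole 8-letter element, and Lipa, the member with the largest diet effect in EAT at 20 and 24 weeks, stands beside them as one without the core.
Cln3 (chr7:126583187-126583486, strand -): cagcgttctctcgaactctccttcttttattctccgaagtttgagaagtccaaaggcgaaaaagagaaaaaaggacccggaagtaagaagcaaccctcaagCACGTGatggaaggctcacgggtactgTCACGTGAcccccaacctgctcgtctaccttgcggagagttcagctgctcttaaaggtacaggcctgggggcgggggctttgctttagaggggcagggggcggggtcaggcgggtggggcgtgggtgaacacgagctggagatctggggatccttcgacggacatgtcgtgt
Gla (chrX:134600956-134601255, strand -): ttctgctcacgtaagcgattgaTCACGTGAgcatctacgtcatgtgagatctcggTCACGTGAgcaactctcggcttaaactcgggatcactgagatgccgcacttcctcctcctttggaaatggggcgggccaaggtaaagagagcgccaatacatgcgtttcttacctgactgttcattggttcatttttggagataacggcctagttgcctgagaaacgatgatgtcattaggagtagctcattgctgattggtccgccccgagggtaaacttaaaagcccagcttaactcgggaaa
Atp6v1a (chr16:44139210-44139509, strand -): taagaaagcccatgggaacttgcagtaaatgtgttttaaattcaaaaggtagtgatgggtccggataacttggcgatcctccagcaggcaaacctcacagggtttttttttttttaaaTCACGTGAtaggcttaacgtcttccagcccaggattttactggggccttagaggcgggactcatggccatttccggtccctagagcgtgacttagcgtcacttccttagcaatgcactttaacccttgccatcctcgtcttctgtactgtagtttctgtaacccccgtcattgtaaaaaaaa
Atp6v0d1 (chr8:105566015-105566314, strand -): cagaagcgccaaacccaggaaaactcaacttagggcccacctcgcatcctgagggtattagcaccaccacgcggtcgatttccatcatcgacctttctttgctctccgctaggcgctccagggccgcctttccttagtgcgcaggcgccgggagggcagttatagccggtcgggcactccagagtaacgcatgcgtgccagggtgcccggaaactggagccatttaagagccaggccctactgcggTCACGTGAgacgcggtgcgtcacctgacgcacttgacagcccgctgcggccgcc
Mcoln1 (chr8:3500269-3500568, strand +): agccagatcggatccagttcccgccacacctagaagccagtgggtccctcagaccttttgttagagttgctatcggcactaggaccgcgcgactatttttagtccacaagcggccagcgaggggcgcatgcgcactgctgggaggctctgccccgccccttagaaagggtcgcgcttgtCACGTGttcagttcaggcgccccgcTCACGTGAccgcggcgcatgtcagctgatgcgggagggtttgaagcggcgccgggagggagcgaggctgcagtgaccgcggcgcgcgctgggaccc
Lipa (chr19:34527425-34527724, strand -): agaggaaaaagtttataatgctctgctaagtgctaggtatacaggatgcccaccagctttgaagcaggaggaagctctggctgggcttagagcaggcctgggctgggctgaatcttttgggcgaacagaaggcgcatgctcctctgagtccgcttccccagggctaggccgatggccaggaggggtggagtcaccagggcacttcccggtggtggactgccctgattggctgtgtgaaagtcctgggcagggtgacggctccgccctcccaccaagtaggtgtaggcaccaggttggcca

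Of the 34 members, 29 had a promoter entry, and Atp6v1b2, Asah1, Npc1, Atp6v1h and Galns had none. A gene was counted if any of its promoters held the motif. The core CACGTG stood in 10 of the 29 (34.5%) and in 8.09% of all 27025 genes with a promoter entry. Counted by promoter, it stood in 7.15% of all 32851 promoters of this length. Every match to the longer element contains the core. The 8-letter TCACGTGA stood in 5 of the 29 (17.2%), in 1.125% of all genes and in 0.974% of all promoters. The Cln3, Gla and Mcoln1 promoters each held the core at 2 places and the Lamp1 promoter at 4, and a second Cln3 entry held none. The other 5 members with the core were Glb1, Lamp1, Naglu, Sgsh and Gaa, so that the core occurred both in members that rose in EAT, as given next, and in Sgsh and Gaa, which were not called there at 20 or 24 weeks. A match of letters is a description of the sequence and was not tested as a site of binding.

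In EAT, lysosomal genes were higher in the HFD group at 20 and 24 weeks. At 24 weeks 22 of the 34 members rose and none fell, at an adjusted p under 0.05 in the limma fit over all probes, against 5.99% of all probes higher and 4.51% lower. At 20 weeks 11 rose and none fell, against 3.85% higher and 3.54% lower. Among the 13928 probes detected on every EAT array, a background closer to the brightness of the members, 8.27% were higher at 20 weeks and 12.5% at 24 weeks. The median difference of the members, HFD minus ND on the log2 scale, was 0.20 at 20 weeks and 0.44 at 24 weeks, where that of all probes was -0.00061 and -0.0027. At an unadjusted p under 0.05, 16 members were higher and 3 lower at 20 weeks, against 3928 and 4049 of 45281 probes. At 24 weeks 25 were higher and 1 lower by that threshold, against 5014 and 4827 probes.

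**Figure D1:**
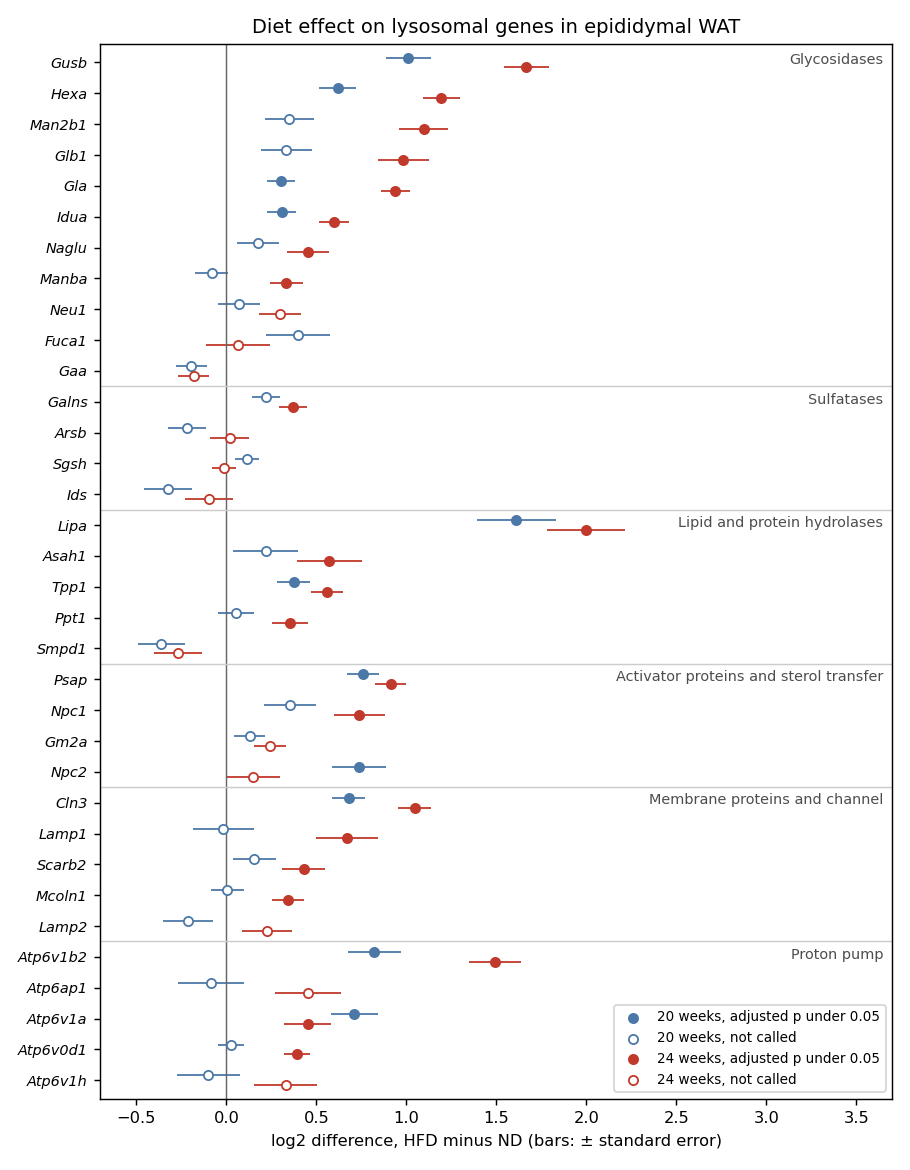
The plot shows the log2 difference between HFD and ND in epididymal WAT (horizontal axis, bars ± standard error, 3 pools per group) for the 34 members by role, at 20 weeks (blue) and 24 weeks (red), with filled points at an adjusted p under 0.05. No filled point lies below 0, and Lipa and Gusb lie farthest to the right.

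By the study's own stricter rule, which also asks for a log2 difference over 1, 2 members rose at 20 weeks and 6 at 24 weeks, against 0.636% and 0.976% of all probes. Of the 11 members that rose at 20 weeks, 10 also rose at 24 weeks (90.9% of the 20-week calls and 45.5% of the 24-week calls): Hexa, Gusb, Lipa, Gla, Psap, Tpp1, Idua, Cln3, Atp6v1a and Atp6v1b2. Npc2 was called at 20 weeks only. The 24-week count rests in part on HFD replicate 5, the highest of the 3 HFD arrays for most members. Without it 14 members rose and 1 fell, and Lamp1, Manba, Naglu, Ppt1, Asah1, Scarb2, Mcoln1 and Atp6v1a were no longer called. The share of all probes called without that array is not given here, so this loss cannot be set against that of other probes. Scaling the arrays by their median instead of by quantiles gave 23 higher at 20 weeks, against 6.35% of all probes higher and 2.61% lower, and 17 higher with Gaa and Smpd1 lower at 24 weeks, where the split over all probes also moved, to 4.92% higher and 7.47% lower.

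Among the enzymes that act on lipids and proteins, 4 of 5 rose at 24 weeks and 2 at 20 weeks. Lipa encodes lysosomal acid lipase, which releases fatty acids and cholesterol from triglycerides and cholesteryl esters, and had the largest difference of all members at both weeks. Its log2 intensity at 20 weeks was 9.41, 9.83 and 10.19 in the ND pools and 11.47, 11.23 and 11.56 in the HFD pools. The 24-week values were 10.01, 10.05 and 10.05 in ND and 11.38, 12.47 and 12.25 in HFD. Every HFD pool was above every ND pool at both weeks. The differences were 1.61 ± 0.22 (SE, adjusted p = 1.8e-05) and 2.00 ± 0.22 (adjusted p = 4.2e-07), a 3.05-fold and a 3.99-fold rise. At 8 weeks its HFD pools (10.36, 10.37 and 10.33) also lay above its ND pools (10.03, 9.75 and 9.82), but that difference was not called. A second probe for Lipa gave 1.67 and 1.82 at 20 and 24 weeks.

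Tpp1, which encodes tripeptidyl peptidase 1, a protease that trims peptides from their N-terminus, rose by 0.37 at 20 weeks and 0.56 at 24 weeks. Asah1, the acid ceramidase, rose at 24 weeks only, by 0.57 (adjusted p = 0.043), and its pools overlapped: ND stood at 12.76, 12.83 and 13.10 and HFD at 13.04, 14.03 and 13.33. Its call was lost with neqc background correction (adjusted p = 0.050), without the 2-week arrays (0.057) and with each week fitted alone (0.26). A second Asah1 probe, detected on every EAT array, gave 1.02 at 24 weeks (adjusted p = 0.0012) and 0.33 at 20 weeks without a call. The third Asah1 probe was detected on no EAT array. Ppt1, palmitoyl-protein thioesterase 1, which removes fatty acyl groups from proteins, rose at 24 weeks by 0.35 and differed by 0.05 at 20 weeks.

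Smpd1, on its brightest probe, differed from the rest of its group. It encodes acid sphingomyelinase, which splits sphingomyelin into ceramide and phosphocholine, and it had the lowest mean change of all 34 members. At 20 weeks it stood at 11.80, 11.70 and 11.67 in ND and 11.44, 11.38 and 11.26 in HFD, all HFD pools below all ND pools, with a difference of -0.36 ± 0.13 (adjusted p = 0.11). At 24 weeks ND stood at 12.05, 12.18 and 12.31 and HFD at 11.82, 12.31 and 11.61, which overlapped (-0.27, adjusted p = 0.24). Its other probes, also detected on every EAT array, gave -0.24 and -0.14 at 20 weeks without a call. The same probes gave 0.05 and -0.21 at 24 weeks, again without a call, so the Smpd1 probes differed in sign there. Of 34 members, Smpd1 was the one whose diet effect was lower at 20 and 24 weeks than at 4 and 8 weeks, by 0.45 ± 0.13 (adjusted p = 0.037). That call was lost with median scaling (adjusted p = 0.050), with 1 week alone as the late or the early time point (0.098 to 0.165), and in 16 of the omissions of 1 array.

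Of the 11 glycosidases, which remove sugars one by one from glycans and glycolipids, 8 rose at 24 weeks and 4 at 20 weeks, with a median difference of 0.60 and 0.31. Gusb encodes beta-glucuronidase, which acts on glycosaminoglycans. Its ND pools stood at 11.39, 11.21 and 11.37 at 20 weeks and its HFD pools at 12.45, 12.17 and 12.37. At 24 weeks the ND pools stood at 12.01, 11.92 and 12.24 and the HFD pools at 13.39, 14.12 and 13.66. Again no pool of one diet reached into the range of the other. Gusb rose by 1.01 ± 0.12 at 20 weeks (adjusted p = 5.1e-06) and by 1.66 ± 0.12 at 24 weeks (adjusted p = 7.4e-10, 3.17-fold), and its 3 other probes also rose at both weeks.

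Hexa, the alpha subunit of beta-hexosaminidase A, which degrades GM2 ganglioside, stood at 11.21, 11.46 and 11.61 in ND and 12.09, 12.04 and 12.00 in HFD at 20 weeks. The 24-week pools stood at 11.80, 11.57 and 11.67 in ND and 12.73, 13.15 and 12.74 in HFD. The diets were apart at both weeks, by 0.62 ± 0.10 (adjusted p = 0.00028) and 1.19 ± 0.10 (adjusted p = 1.1e-08). Man2b1, the lysosomal alpha-mannosidase, stood at 12.69, 12.68 and 12.78 in ND and 13.45, 14.29 and 13.71 in HFD at 24 weeks, a rise of 1.10 ± 0.14 (adjusted p = 2.9e-06). At 20 weeks its values were 13.24, 12.86 and 12.93 in ND and 13.28, 13.39 and 13.41 in HFD, and the difference of 0.35 was not called (adjusted p = 0.15). A second bright Man2b1 probe did rise at 20 weeks, by 0.56, and at 24 weeks by 1.04.

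Glb1, beta-galactosidase, rose by 0.98 at 24 weeks and differed by 0.33 at 20 weeks without a call. Its 3 other probes were detected on at most 17 arrays and were not called at 24 weeks. Idua, which removes iduronic acid from heparan and dermatan sulfate, rose by 0.31 and 0.60 at 20 and 24 weeks. Its 20-week call was lost with each week fitted alone (adjusted p = 0.051), with its probes averaged (0.055) and without ND replicate 1 (0.127) or HFD replicate 1 (0.103), and its second probe gave 0.03. Naglu, an enzyme of heparan sulfate breakdown, rose by 0.45 at 24 weeks and Manba, beta-mannosidase, by 0.33, while at 20 weeks they differed by 0.18 and -0.08 without a call.

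Gla, alpha-galactosidase A, which removes terminal galactose from globotriaosylceramide, was dim: it was detected on 4 of 30 EAT arrays, namely 1 of 3 HFD arrays at 20 weeks and all 3 at 24 weeks. The fit called it higher at both weeks, by 0.30 and 0.94, but against ND arrays on none of which the probe was above background. Set against the lowest signal of a detected probe in the ND arrays, it was at least 1.59-fold higher at 24 weeks. At 20 weeks the same bound was 1.01-fold, and the 20-week call of Gla was lost in 2 of the omissions of 1 array. Neu1, the lysosomal sialidase, differed by 0.07 and 0.30, and Fuca1, the alpha-fucosidase, by 0.40 and 0.06, with no call at either week. Gaa, the acid alpha-glucosidase that digests glycogen, was among the 3 members with the lowest mean change. Its pools stood at 11.02, 11.03 and 10.92 in ND and 10.79, 10.81 and 10.80 in HFD at 20 weeks, and at 10.96, 11.06 and 10.90 in ND and 10.73, 10.94 and 10.71 in HFD at 24 weeks. Neither difference (-0.19 and -0.18) passed the test.

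The sulfatases, which remove sulfate from glycosaminoglycans, moved little. Galns rose by 0.37 at 24 weeks (adjusted p = 0.0022) and was the 1 called of 4, and none was called at 20 weeks. Sgsh differed by 0.11 and -0.01 at 20 and 24 weeks and Arsb by -0.22 and 0.02. Ids, iduronate 2-sulfatase, stood at 11.34, 10.87 and 10.82 in ND and 10.69, 10.72 and 10.64 in HFD at 20 weeks. Later, at 24 weeks, it stood at 10.64, 10.41 and 10.70 in ND and 10.29, 10.67 and 10.50 in HFD. The HFD pools were lower at 20 weeks and overlapped the ND pools at 24 weeks, and neither difference (-0.33 and -0.09) was called. The median difference of the 4 sulfatases was -0.05 at 20 weeks and 0.0015 at 24 weeks.

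Activator proteins present lipids to the hydrolases, and 2 of the 4 members of this group rose at each week. Psap, whose product is cut into the saposins that help degrade sphingolipids, rose by 0.76 ± 0.09 at 20 weeks and 0.91 ± 0.09 at 24 weeks (adjusted p = 1.9e-06 and 5.2e-08), and its second probe rose by 0.87 and 1.02. With median scaling the 24-week difference was 0.55 and was not called (adjusted p = 0.058). The HFD pools of 24 weeks stood at 16.00, 15.93 and 16.00, close to the highest intensity of an EAT array (16.09), with 7 to 13 probes brighter. Gm2a, the GM2 activator that works with the Hexa product, differed by 0.13 and 0.24 without a call. Npc1 and Npc2 pass cholesterol from the lumen to the membrane and out of the lysosome. Npc1 rose by 0.74 at 24 weeks on its brightest probe, but its next brightest probe gave -0.25 without a call, so its 7 probes disagreed. Npc2 rose by 0.74 at 20 weeks and differed by 0.15 at 24 weeks, where its level was far lower on every array.

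Of the 5 membrane proteins, 4 rose at 24 weeks and 1 at 20 weeks. Cln3 encodes a lysosomal membrane protein whose loss causes a childhood form of neuronal ceroid lipofuscinosis. It stood at 9.39, 9.53 and 9.59 in ND and 10.28, 10.13 and 10.13 in HFD at 20 weeks. Its 24-week pools stood at 10.19, 10.05 and 10.10 in ND and 10.94, 11.29 and 11.24 in HFD. The pools were apart at both weeks, by 0.68 ± 0.09 (adjusted p = 1.4e-05) and 1.05 ± 0.09 (adjusted p = 9.2e-09). Lamp1, a heavily glycosylated protein of the limiting membrane, rose by 0.67 at 24 weeks and differed by -0.02 at 20 weeks. Its HFD pools at 24 weeks were 14.14, 15.02 and 14.21, with the highest in replicate 5, against 13.72, 13.65 and 13.98 in ND. Scarb2, an abundant protein of the lysosomal membrane, rose by 0.43 at 24 weeks, and Mcoln1, a cation channel that releases calcium, by 0.34, with 0.16 and 0.01 at 20 weeks. Lamp2 was not called on its brightest probe (-0.22 and 0.23), whereas 2 of its 7 probes rose at 24 weeks, by 0.67 and 0.63.

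Of the proton pump members, 3 of 5 rose at 24 weeks and 2 at 20 weeks. Atp6v1b2 and Atp6v1a encode subunits of the head that hydrolyses ATP. Atp6v1b2 stood at 12.17, 11.56 and 11.68 in ND and 12.68, 12.44 and 12.75 in HFD at 20 weeks. At 24 weeks it stood at 11.87, 11.90 and 11.91 in ND and 13.08, 13.84 and 13.25 in HFD. No pool overlapped the other diet at either week, and the gene rose by 0.82 ± 0.14 (adjusted p = 0.00045) and 1.49 ± 0.14 (adjusted p = 5.9e-08, 2.81-fold). Atp6v1a rose by 0.71 and 0.45, with overlapping pools at 24 weeks. Atp6v0d1, of the membrane sector, rose by 0.39 at 24 weeks and differed by 0.03 at 20 weeks. The accessory protein Atp6ap1 (-0.09 and 0.46) and the regulatory subunit Atp6v1h (-0.10 and 0.33) were not called.

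**Figure D2:**
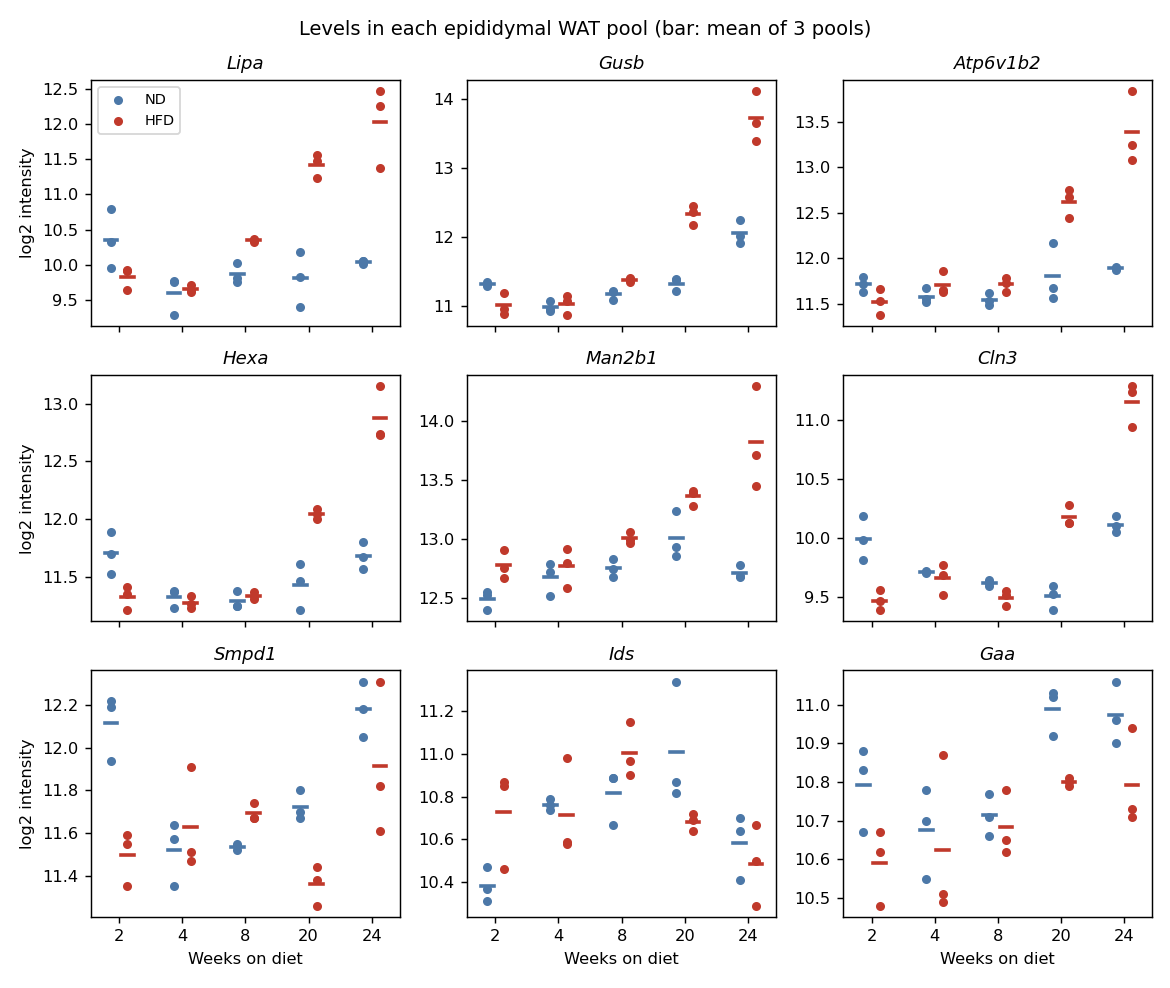
The panels give the log2 intensity (vertical axis) in each epididymal WAT pool by weeks on diet (horizontal axis, equal steps) for 6 members with the largest rises and for Smpd1, Ids and Gaa, with ND in blue, HFD in red and a bar at the mean of 3 pools. Lipa, Gusb, Atp6v1b2, Hexa and Cln3 separate by diet at 20 and 24 weeks, and the vertical axes differ between panels and do not start at 0.

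Between 4 and 8 weeks few members differed by diet. At 4 weeks none was called in either direction, against 0.272% of probes higher and 0.139% lower. By an unadjusted p under 0.05, 1 member was higher and 1 lower at 4 weeks, against 2074 and 2086 of 45281 probes. At 8 weeks 1 member was called higher, Glb1, and none lower, against 0.517% and 0.192%. Its ND pools stood at 10.26, 10.21 and 10.35 and its HFD pools at 10.81, 10.91 and 10.90, a rise of 0.61 (adjusted p = 0.045) that was not called when any 1 of the 6 pools was left out. At an unadjusted p under 0.05, 4 members were higher at 8 weeks and none lower, against 2248 and 2102 of 45281 probes.

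The difference between weeks was tested directly. For 13 members the diet effect was larger at 20 and 24 weeks, averaged, than at 4 and 8 weeks, and for Smpd1 it was smaller, against 3.96% and 2.88% of all probes. The 13 were Lipa (by 1.53), Gusb (1.20), Atp6v1b2 (1.01), Cln3 (0.95), Npc1 (0.92), Hexa (0.91), Psap (0.82), Gla (0.63), Man2b1 (0.55), Idua (0.46), Tpp1 (0.40), Galns (0.36) and Gm2a (0.29). The value of Gla rests on ND arrays where its probe was not above background. The Gm2a call (adjusted p = 0.042) was lost with median scaling (0.101), with neqc background correction (0.052), with 1 week alone as the late or the early time point (0.054 to 0.281), and in 16 of the omissions of 1 array. An interaction test over all 5 weeks called 25 members, against 29.0% of all probes. With 2 weeks left out it called 12, all of them among those 13, against 6.05%. With 20 weeks alone as the late time point, 7 members had the larger effect, and the share of all probes is not given here.

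At 2 weeks 7 members were higher and 13 lower in HFD, against 14.5% and 21.7% of all probes, and these diet groups were also the arrays of low and high background. Apart from diet, 5 members had levels on the 9 high-background arrays that did not overlap those on the other 21, against 7.73% of all probes: Npc2, Atp6v1a and Lamp2 were lower and Idua and Gm2a higher there. Npc2, singled out after its values were seen, stood at 8.88 to 9.67 on the 9 arrays and at 11.8 to 13.1 on the 21. In MAT it stood at 8.50 to 9.53 on the 3 high-background arrays and at 10.8 to 11.9 on the other 7, which is the same split in a second tissue.

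The 2-week difference of Npc2 was 3.28, with ND at 8.94, 8.88 and 9.03 and HFD at 12.15, 12.34 and 12.19. Both diets stood near the ND level of 2 weeks at 24 weeks, with 9.25, 9.52 and 9.34 in ND and 9.63, 9.27 and 9.67 in HFD. Atp6v1a stood at 7.35 to 8.56 on the high-background EAT arrays and at 9.03 to 10.8 on the others, and Lamp2 at 11.9 to 12.7 and 12.9 to 13.6. Their 2-week differences of 1.90 and 0.93 follow the same grouping of arrays. Probes of 1 gene did not move alike at 2 weeks: those of Lamp2 ranged from -0.72 to 1.83, and the 2 brightest of Npc1 gave -0.69 and 2.06. Of 10 members with several probes detected on every EAT array, 3 had all those probes on the same side of 0 at 2 weeks and 8 at 24 weeks.

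**Figure D3:**
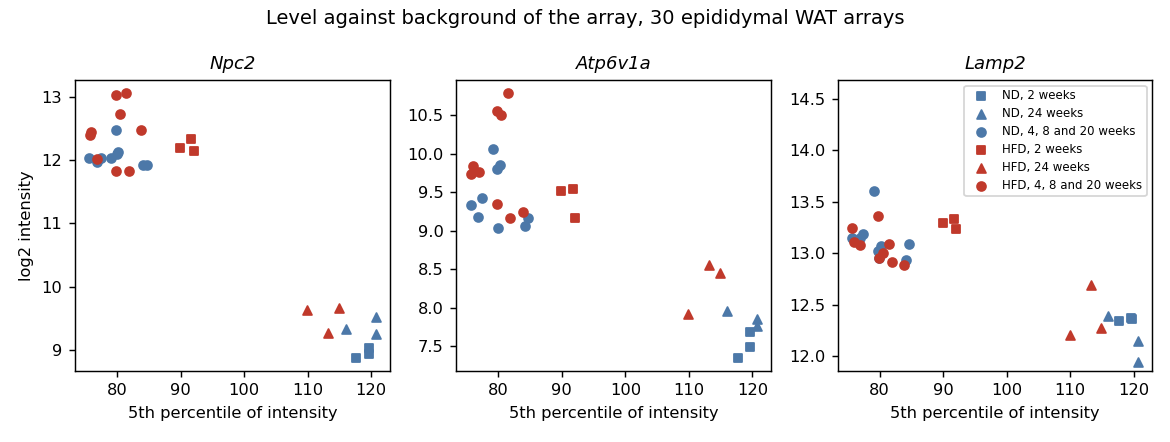
The panels plot log2 intensity in epididymal WAT (vertical axis) against the background of the array, the 5th percentile of its intensities (horizontal axis), for Npc2, Atp6v1a and Lamp2 on 30 arrays, coloured by diet (ND blue, HFD red) and shaped by week. In each gene the 9 arrays of high background lie below the other 21.

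Other genes of the pathway, outside the 34, were counted in the same fit. Of 12 cathepsins and related proteases, 8 rose at 24 weeks and 8 at 20 weeks, with medians of 0.75 and 0.57. Ctsk, a collagen-degrading protease, rose by 2.96 at 24 weeks, Lgmn by 1.93, Ctsl by 1.37 and Ctsa by 1.17. Of 9 measured proton pump subunits outside the members, 4 rose at each week: at 24 weeks Atp6v0a1 by 1.29, Atp6v0b by 0.84, Atp6v1c1 by 0.78 and Atp6ap2 by 0.63. Of 11 other lysosomal genes, 6 rose at 24 weeks and 4 at 20 weeks, led by Laptm5 (1.27), Dnase2a (1.13), Galc (0.71) and Cd63 (0.65). Of 5 genes that sort enzymes to lysosomes 1 was called at each week, Igf2r, the mannose 6-phosphate receptor, with 1.04 at 24 weeks.

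Of 4 transcription factors of the TFEB family, Tfe3 (0.31) and Tfeb (0.23) rose at 24 weeks and Mitf (0.27) at 20 weeks. None of 11 autophagy genes was called at either week, with differences at 24 weeks from -0.35 for Map1lc3a to 0.30 for Sqstm1 (adjusted p = 0.62 and 0.085). Macrophage markers rose at the same weeks: 12 of 14 were higher and 1, Cd163, lower (-0.71 at 20 weeks, -0.66 at 24 weeks). At 24 weeks Trem2 rose by 3.58, Gpnmb by 3.04, Lgals3 by 1.89 and Fcgr3 by 1.54.

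The summed intensity of the 14 macrophage markers was 34049 to 46141 in ND and 111787 to 120886 in HFD at 20 weeks. At 24 weeks it was 35310 to 36785 in ND and 108026 to 148925 in HFD, with the highest sum on HFD replicate 5. At 8 weeks, when 1 member was called, the sums were apart, with 32374 to 35560 in ND and 49065 to 51807 in HFD. They were also apart at 2 weeks, with 16654 to 19336 in ND and 31412 to 34740 in HFD. At that week 7 members were higher and 13 lower, and diet and array background cannot be told apart. The sums overlapped at 4 weeks (27096 to 35004 and 29743 to 30167). None of 9 adipocyte markers rose, and at 24 weeks 5 fell, among them Slc2a4 (-1.02), Retn (-0.86), Pparg (-0.72) and Adipoq (-0.61). The summed intensity of the 9 overlapped between diets at 20 weeks (181885 to 206633 in ND, 182291 to 187365 in HFD) and at 24 weeks (170529 to 185422 and 162469 to 182396). Of 5 mesothelial markers, 3 keratins fell at 20 weeks (sums of 2050 to 3458 in ND and 642 to 1428 in HFD), and of 5 skeletal muscle markers Acta1 fell (-1.81), and their part in the member values was not tested. In bulk tissue, more macrophages and more lysosomal RNA per cell cannot be told apart, nor can fewer adipocytes and less RNA per adipocyte. The part of macrophage RNA in the rise of the members was not tested.

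In MAT, with 1 pool per diet and week, no member was called over the 5 weeks, and neither was any probe (0% of 45281, limma with week as a block and 4 residual degrees of freedom). At an unadjusted p under 0.05, 2 members (Ppt1 and Asah1) and 2685 probes passed. Ppt1 had the highest mean difference, 0.35, with 9.56, 9.12, 9.28, 9.36 and 9.50 in ND and 9.81, 9.69, 9.94, 9.31 and 9.85 in HFD at 2, 4, 8, 20 and 24 weeks. It was higher in HFD at 4 of 5 weeks, 20 weeks being the exception. Glb1 stood at 9.78, 10.51, 10.46, 10.38 and 9.76 in ND and 10.48, 10.26, 10.48, 10.86 and 10.01 in HFD.

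Naglu stood at 8.51, 8.71, 8.85, 8.87 and 8.04 in ND and 9.14, 8.79, 8.69, 9.30 and 8.22 in HFD. Man2b1 stood at 12.46, 12.84, 12.59, 12.49 and 12.18 in ND and 12.69, 12.79, 12.62, 12.79 and 12.76 in HFD. Each of these 3 glycosidases was higher in HFD at 4 of 5 weeks. Glb1 and Naglu differed most at 2 weeks (0.70 and 0.62) and Man2b1 at 24 weeks (0.58). At 2 weeks the ND array had a high background (108.1) and the HFD array a low one (81.3), so the 2 cannot be told apart from diet. The lowest mean differences were those of Smpd1 (-0.25) and Atp6v1h (-0.23), and Smpd1 stood at 11.64, 10.59, 10.96, 11.11 and 11.66 in ND and 10.97, 10.50, 10.79, 11.24 and 11.22 in HFD. Both were lower in HFD at 4 of 5 weeks, as were Atp6v1b2, Sgsh, Mcoln1, Lamp1 and Atp6ap1. Lipa, which led in EAT, differed in MAT by 0.38 at 20 weeks and -0.20 at 24 weeks, and Gusb by 0.40 and 0.23. At 20 weeks 30 of 34 members were higher in HFD (median 0.18, all probes 0.0085), and at 24 weeks 16 were (median -0.04). At 2, 4 and 8 weeks 16, 11 and 17 members were higher. Each count rests on 1 pool per diet, and the share of all probes that were higher was not counted. Macrophage markers in MAT summed to 35441 in ND and 50064 in HFD at 20 weeks, and to 21069 and 35487 at 24 weeks. The MAT pools also carried transcripts of other tissues. Intestinal markers (6 genes) summed to between 1682 and 59524 and lymphocyte markers (3 genes) to between 1815 and 12865. Pancreatic markers (3 genes) summed to 75733 in ND and 79686 in HFD at 2 weeks. Skeletal muscle markers (5 genes) summed to 39955 in ND at 2 weeks. Hepatocyte markers (7 genes) in ND summed to 2279, 799, 16414, 41908 and 1603 at 2, 4, 8, 20 and 24 weeks. The HFD sums were 6361, 8365, 796, 16208 and 25076. The parts of all these transcripts in the member values were not tested.

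**Figure D4:**
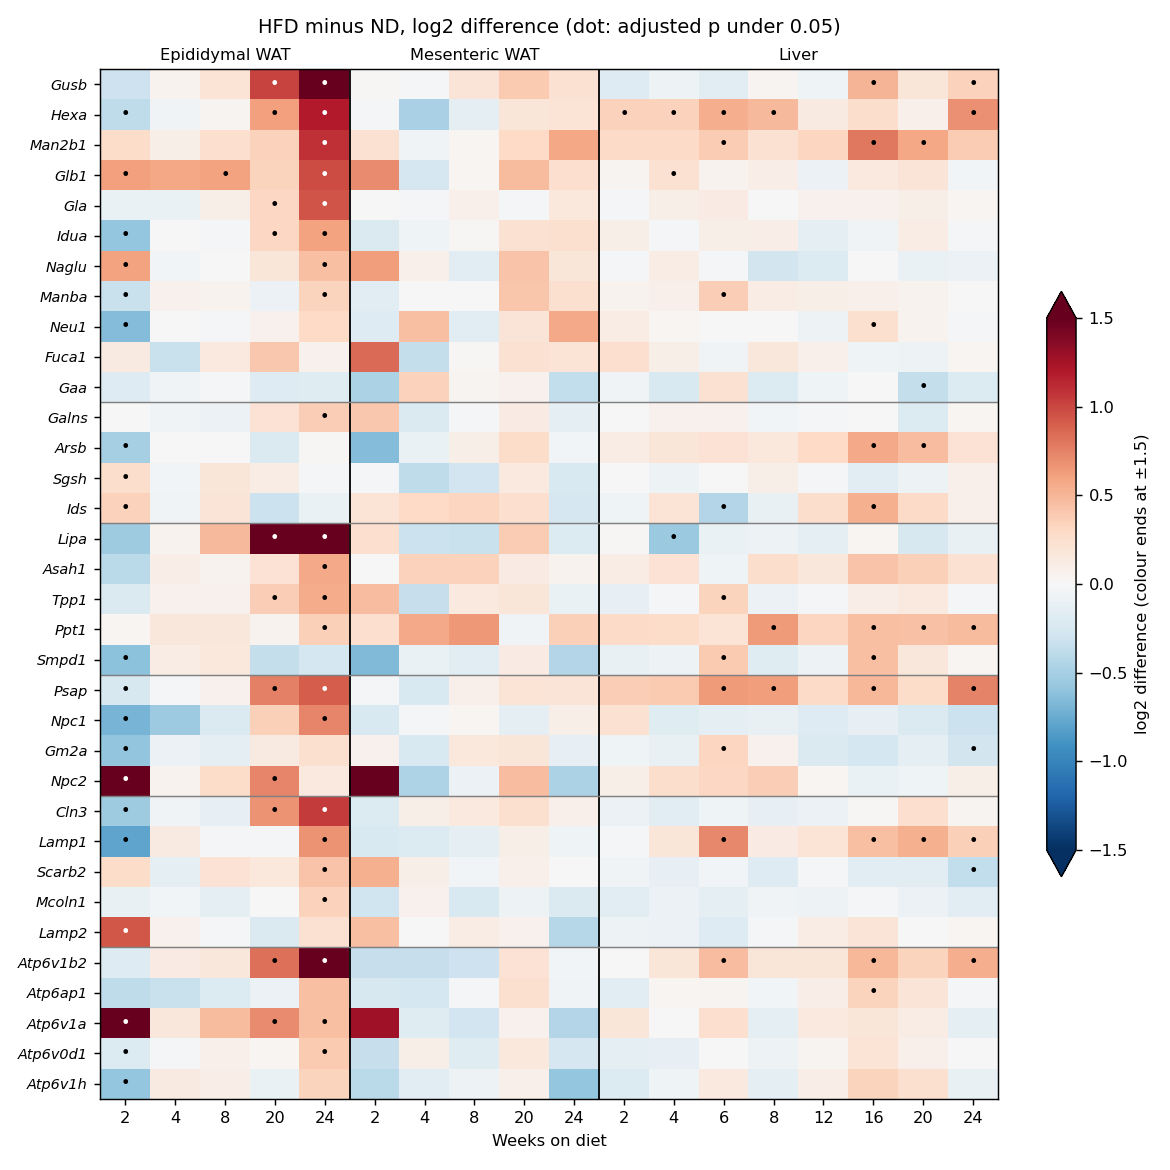
The map gives the log2 difference between HFD and ND for each member (rows, by role) at each week (columns) in epididymal WAT, mesenteric WAT and liver, with red for higher in HFD, colour ending at ±1.5, and a dot at an adjusted p under 0.05. Red with dots fills most rows at 24 weeks in epididymal WAT, and liver dots lie mainly at 6, 16 and 24 weeks.

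In liver members were called at 7 of the 8 sampling times, with no difference over 1 on the log2 scale. In the order of the 8 sampling times (weeks 2, 4, 6 and 8, then 12, 16, 20 and 24), the members higher in HFD numbered 1, 2, 9, 3, 0, 11, 4 and 6, against 1.05%, 1.56%, 3.98%, 2.19%, 0.711%, 3.45%, 1.77% and 2.99% of all probes. In the same order the members lower in HFD numbered 0, 1, 1, 0, 0, 0, 1 and 2, against 0.760%, 1.08%, 3.45%, 1.42%, 0.446%, 2.67%, 1.01% and 2.09%. At 12 weeks 5 members were higher and 2 lower at an unadjusted p under 0.05, against 1942 and 1895 of 45281 probes. In all 19 members were called at 1 or more weeks and 15 at none. The share of all probes called at 1 or more weeks is not given here, so these counts have no background to compare with. The 16-week count was 6 without HFD replicate 1 and 0 with that week fitted alone. Shares of all probes called in those fits are not given here.

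Hexa was called higher at 5 of the 8 weeks, more often than any other member. At 2 weeks it stood at 9.74, 9.55 and 9.65 in ND and 9.93, 9.995 and 10.06 in HFD. At 24 weeks it stood at 10.45, 10.42 and 10.39 in ND and 11.24, 11.20 and 10.87 in HFD. All HFD samples were above all ND samples at both weeks, by 0.35 (adjusted p = 0.026) and 0.68 ± 0.09 (adjusted p = 6.9e-07). Lamp1 was called at 4 of the 8 sampling times, with its largest difference, 0.72 ± 0.11, at 6 weeks (12.95, 12.95 and 13.11 in ND against 13.64, 13.84 and 13.70 in HFD). Psap was also called at 4 of them and reached 0.75 ± 0.13 at 24 weeks, where ND stood at 13.68, 13.64 and 13.65 and HFD at 14.46, 14.27 and 14.49.

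Ppt1 was called at 8, 16, 20 and 24 weeks, and at 24 weeks stood at 8.48, 8.34 and 8.38 in ND and 8.89, 8.94 and 8.80 in HFD (0.48). Man2b1 was called at 3 sampling times. At 16 weeks it stood at 12.01, 11.90 and 12.09 in ND and 13.36, 12.39 and 12.62 in HFD (0.79), with replicate 1 the highest by far. Manba was called at 6 weeks alone, with 9.75, 9.68 and 9.70 in ND and 10.14, 10.04 and 10.07 in HFD (0.37). Atp6v1b2 was called at 6, 16 and 24 weeks, with 0.47, 0.50 and 0.55. Without HFD replicate 1 its 16-week difference was 0.28 and was not called (adjusted p = 0.127).

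The calls lower in HFD in liver were single ones. Lipa fell at 4 weeks, from 12.17, 12.25 and 12.39 in ND to 11.65, 11.69 and 11.79 in HFD (-0.56, adjusted p = 0.0072). Ids fell at 6 weeks (-0.43) and rose at 16 weeks (0.54), a call that was lost without HFD replicate 1 (0.25, adjusted p = 0.089). Gaa fell at 20 weeks (-0.36), and Scarb2 (-0.37) and Gm2a (-0.28, overlapping samples) at 24 weeks. An interaction test over the 8 sampling times called 7 members, Smpd1, Gusb, Ids, Gm2a, Hexa, Lamp1 and Tpp1, against 5.37% of all probes. Macrophage markers in liver summed to 4626 to 7769 in the ND samples from 2 weeks on and 7370 to 18921 in the HFD samples. At each of the 8 sampling times every HFD sum was above every ND sum. At 12 weeks, when no member was called, the sums were 5364 to 5868 in ND and 8679 to 11030 in HFD. The part of macrophage transcripts in the liver values was not tested.

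**Figure D5:**
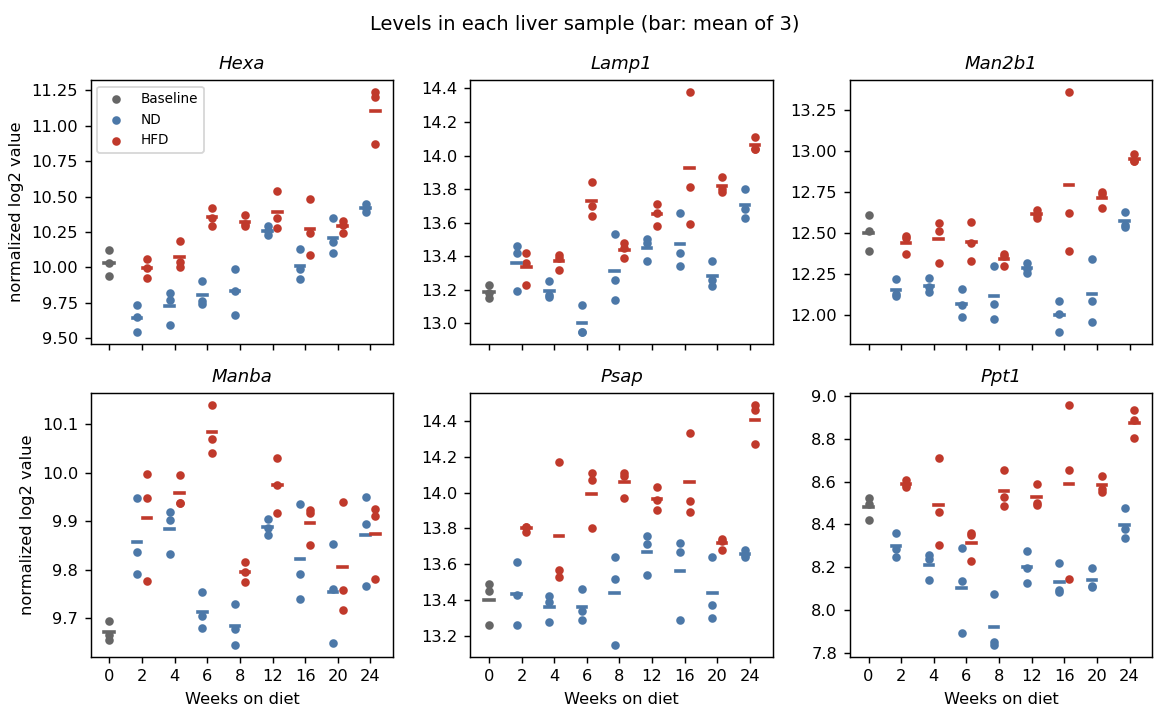
The panels give the normalized log2 value (vertical axis, which does not start at 0) in each liver sample by weeks on diet (horizontal axis, equal steps) for Hexa, Lamp1, Man2b1, Manba, Psap and Ppt1, with baseline in grey, ND in blue, HFD in red and a bar at the mean of 3 samples. Psap separates by diet at all 8 sampling times from 2 weeks on and Hexa at 2, 4, 6, 8 and 24 weeks. HFD replicate 1 of 16 weeks stands above the other samples of that week for Man2b1.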

How the data were processed

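Per the file headers and the methods, the authors extracted probe intensities and detection p-values of the EAT and MAT arrays in BeadStudio (3.1.3 in the submitters' processing notes, with R 2.4.1), quantile normalized them and took log2. Liver was used as the deposited normalized log2 values. Here the deposited intensity values of EAT and MAT were quantile normalized and log2 transformed within each tissue in R 4.3.3. They differed from the deposited log2 values by at most 0.00071 in EAT and 0.0011 in MAT. Detection at a deposited p-value under 0.05 served for counts of arrays only.

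Each tissue was fitted with limma 3.58.1, with 1 mean per diet and week (10 groups in EAT, 17 in liver) and a shared spread, and with week as a block in MAT. Adjusted p-values are Benjamini-Hochberg values over all 45281 probes of a week, called under 0.05 with no minimum fold. The fits were also run on simulated data, and the outcome of that check is not given here. Of the probes, 34885 have 1 symbol, 18 several and 10378 none, and members were named only from probes with 1 symbol. The number of arrays limits the precision. Whether liver RNA was pooled is not given in the sources used here. Every member was named. Values of every array were given for members past the methods' threshold in EAT, the 3 with the lowest change there, the 6 with the smallest liver p and the 4 with the highest mean MAT difference, and further values where a result turned on them. Of the other lists up to 4 genes with the largest change at 24 weeks were named. The members and lists were chosen with earlier results of these data known.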

Additional observations from a re-analysis of the deposited data

Results flagged for a closer look

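Effects of diet that differed between weeks or tissues were marked for a closer look. In EAT the diet effect differed between weeks for 25 members, was larger at 20 and 24 weeks than at 4 and 8 weeks for 13, and smaller for 1, Smpd1. In liver it differed between weeks for 7 members. No group held enough arrays for a check of single outlying samples.

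For 9 members the 3 HFD samples lay on opposite sides of the 3 ND samples in EAT and liver at the same week, and the difference between the tissues was not tested. Over all 45281 probes 10.8% did so at 1 or more of the 5 shared weeks. At 2 weeks Hexa was lower in EAT (-0.38) and higher in liver (0.35), and Psap likewise (-0.24 and 0.36), at the week where diet and array background coincide in EAT. At 8 weeks Smpd1 differed by 0.16 in EAT and -0.19 in liver. At 20 weeks Lipa rose by 1.61 in EAT and differed by -0.24 in liver. At the same week Galns differed by 0.22 and -0.20, Smpd1 by -0.36 and 0.17, Arsb by -0.22 and 0.46, and Ids by -0.33 and 0.28, in that order of tissues. At 24 weeks Npc1 differed by 0.74 and -0.32, and Scarb2 by 0.43 and -0.37.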

How the results depend on the processing

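Leaving out 1 array at a time gave these counts of members in EAT, lowest to highest, for weeks 2, 4, 8, 20 and 24 in turn: 6 to 8, 0, 0, 8 to 11 and 14 to 21 higher, and 10 to 14, 0 to 1, 0, 0 and 0 to 1 lower (Smpd1 in the last, without HFD replicate 5). The interaction called 23 to 29, and the larger late effect 12 to 15. In liver, in the order of the 8 sampling times, it gave 0 to 2, 0 to 3, 7 to 9, 3, 0, 6 to 13, 3 to 4 and 4 to 5 higher and 0, 0 to 1, 0 to 1, 0 to 1, 0, 0 to 1, 0 to 1 and 1 to 3 lower, and the liver interaction called 6 to 12. Single members crossed 0 without 1 array, with these ranges: for week 20 Lamp1 (-0.13 to 0.18), Atp6ap1 (-0.20 to 0.098), Atp6v1h (-0.20 to 0.089), Ppt1 (-0.022 to 0.20), Mcoln1 (-0.066 to 0.073), and for week 24 Arsb (-0.15 to 0.14), Sgsh (-0.049 to 0.0081), Fuca1 (-0.041 to 0.18), Ids (-0.19 to 0.0038).

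With a minimum log2 difference of 1, EAT had 2 higher and 0 lower at 2 weeks, 0 higher at week 8, 2 at week 20 and 6 at week 24, and liver had 0 in either direction at every week. Median scaling of EAT gave 1 lower at 4 weeks, 23 higher at 20 weeks and 2 lower at 24 weeks. It turned Lamp1 (0.34), Atp6ap1 (0.28), Atp6v1h (0.20), Lamp2 (0.16), Manba (0.14) and Gaa (0.056) positive at 20 weeks and Arsb (-0.13) negative at 24 weeks. Against the probes detected on every array, the members' median stood 0.22 higher at 20 weeks and 0.47 at 24 weeks with quantile scaling, and 0.27 and 0.46 with median scaling. Without the 2-week arrays 1 member was lower at 4 weeks, 0 were higher at 8 weeks and the interaction called 12. With each week fitted alone, EAT had 4 higher at week 8, 1 lower at week 20 and 15 higher at week 24 (22 before, without Lamp1, Scarb2, Mcoln1, Galns, Atp6v0d1, Atp6v1a and Asah1), and liver had 3, 0, 5, 0 and 7 higher for weeks 2, 4, 12, 16 and 20. With 20 weeks alone as the late time point 7 members had a larger effect, against 14 with 24 weeks alone. The shares of all probes called are not given for the fits without 1 array, with single weeks or with single late time points.

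Read on the second brightest probe, which 21 members have, EAT had 4 higher and 8 lower at 2 weeks, 0 higher at week 8, 4 at week 20 and 7 at week 24. Liver then had 0, 0, 2, 1, 2, 1 and 3 higher for weeks 2, 4, 6, 8, 16, 20 and 24, with 0 lower for weeks 6, 20 and 24. Second probes on the other side of 0 were, in EAT, Glb1 (-0.58), Npc1 (2.06), Ids (-0.026) and Sgsh (-0.34) at 2 weeks and Glb1 (-0.19) at 8 weeks. At 20 weeks they were Gaa (0.016), Npc1 (-0.28), Arsb (0.083) and Sgsh (-0.095), and at 24 weeks Gaa (0.093), Glb1 (-0.045), Npc1 (-0.25), Tpp1 (-0.10), Galns (-0.0097), Ids (0.098) and Atp6v1h (-0.11). In liver they were Glb1 (-0.063) at 4 weeks, Manba (-0.011) and Tpp1 (-0.039) at 6 weeks, Arsb at 16 (-0.021) and 20 weeks (-0.042) and Scarb2 (0.048) at 24 weeks. With the probes of a gene averaged, 1 member was lower at 4 weeks, 0 were higher at 8 weeks, and Npc1 (0.66) and Sgsh (-0.037) at 2 weeks and Ids (0.0018) at 24 weeks crossed 0. On the liver probes above the median brightness 1 member was lower at 16 weeks and 2 at 20 weeks.

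The median MAT difference of the members was -0.37 at 2 weeks with median scaling (-0.011 before) and 0.022 at 24 weeks (-0.042 before), and 0.21 at 20 weeks with neqc. On second probes it was -0.020, 0.046, 0.056 and 0.047 for weeks 4, 8, 20 and 24. The promoter share was 17.2% with the 8-letter element. Replicate numbers were not taken as pairs, since not every correlation was over 0.1 (-0.32 to 0.31 over 15 pairs in EAT, 4 over 0.1 and 3 best with their own number, and -0.28 to 0.18 over 24 pairs in liver, 1 over 0.1 and 14 best with their own number, among them all pairs of weeks 2, 6 and 8), and with the replicate number as a block EAT had 0 higher at week 8, 11 at week 20 and 21 at week 24, and liver 1 lower at 8 weeks and 1 at 24 weeks. Chosen after seeing the data, a fit of the 20-week and 24-week arrays alone gave 10 and 19 higher. The cause of these differences was not tested.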
